A study of Mus musculus with 24 samples.

Results

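The mature miRNAs of livers from mice on a high-fat diet (HFD) were compared with those of livers from mice on a normal diet (control). The libraries were chosen by a rule that used 1 measured value: all 4 HFD libraries were taken, with control 1, control 3 and control 4, and control 2 was left out because miR-122-5p, the main miRNA of hepatocytes, was under 1000 CPM (reads scaled to a common library total). That gave 7 of the 12 small RNA libraries, of 24 libraries in the series. The lowest library inside the threshold was HFD 4, at 333065 CPM of miR-122-5p, and control 2, outside it, was at 316 CPM. The authors' table listed 1291 mature miRNAs, of which 406 passed the filter on low counts and were tested. The other 885 held 0.0203% of all reads in the 7 libraries.

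All mice were wild-type male C57BL/6. HFD mice ate a high-fat diet, which brings on the fatty liver the study calls MAFLD, without further treatment. HFD_HQHF mice ate the same diet and received the herbal formula HQHF by gavage, which the study began after 12 weeks of the diet. Control mice ate a normal diet. The study kept 9 mice in each group, and 4 of the HFD, 4 of the HFD_HQHF and 4 of the control mice were sequenced. The age of the mice, the length of the diet at sampling and the dose of HQHF in these libraries were not stated in the labels. HFD_HQHF libraries 1, 2 and 4 entered the fit to help estimate the spread between mice and were not compared. HFD_HQHF 3 was left out by the same rule, at 134 CPM of miR-122-5p. Each mouse had a batch code of its own, so batch and mouse cannot be told apart.

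The 7 small RNA libraries held from 8139111 reads (control 1) to 12813806 reads (HFD 1). Alb, the albumin gene of hepatocytes, was at 35054 to 76292 CPM of the library total in the long RNA of the 4 HFD mice, and at 58144 to 92208 CPM in the 3 control mice, so both kinds of library carried liver RNA. Markers of other tissues were highest in single libraries. Adipocyte genes made up 0.0401% of long RNA counts in HFD 3, with 1492 reads of Adipoq, and pancreatic acinar genes 0.199% in control 1.

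miRNAs are short RNAs cut from a hairpin precursor, whose arms give a 5p and a 3p product. A mature miRNA loaded into an Argonaute protein pairs with messenger RNAs mainly through its seed, bases 2 to 8, and lowers their stability and translation. miRNAs with the same seed can act on overlapping sets of messengers. Many miRNAs lie within introns of protein-coding genes, called host genes, and others lie together in clusters that are transcribed as 1 precursor. In the liver miR-122 is by far the most abundant, and miR-34a, miR-223 and miR-21 are among those most studied in fatty liver.

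The sequences below are those on which the comparison turns, printed 5′ to 3′ from RefSeq (GRCm38.p6) with the seed in capitals. Of the 406 tested miRNAs, 348 matched a RefSeq mature sequence by name, with 278 different seeds. The first set were called in every fit that left out 1 library.
miR-34a-5p: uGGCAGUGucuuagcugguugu
miR-582-3p: uAACCUGUugaacaacugaac
miR-582-5p: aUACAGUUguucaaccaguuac
miR-223-3p: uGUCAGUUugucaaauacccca
miR-674-5p: gCACUGAGaugggaguggugua
miR-350-3p: uUCACAAAgcccauacacuuuc
miR-455-5p: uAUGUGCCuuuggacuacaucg
miR-101b-3p: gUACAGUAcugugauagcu
miR-1843a-5p: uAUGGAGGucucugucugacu
miR-1843b-5p: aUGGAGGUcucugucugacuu
The second set share a seed within a pair but differed in their changes, except miR-449a-5p, which shares its seed with miR-34a-5p. miR-27a-3p and miR-15b-5p were also called in every such fit.
miR-27a-3p: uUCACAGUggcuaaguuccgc
miR-27b-3p: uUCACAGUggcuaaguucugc
miR-15b-5p: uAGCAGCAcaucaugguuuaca
miR-15a-5p: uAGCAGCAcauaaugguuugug
let-7e-5p: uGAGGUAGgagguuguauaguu
let-7f-5p: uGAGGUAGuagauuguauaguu
miR-449a-5p: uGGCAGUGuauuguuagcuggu
On GRCm38.p6 miR-34a-5p lies at chr4:150068473-150068494, miR-582-5p and miR-582-3p at chr13:109324753-109324774 and chr13:109324790-109324810, miR-223-3p at chrX:96242884-96242905, miR-455-5p at chr4:63256867-63256888 and miR-101b-3p at chr19:29135338-29135356, all on the plus strand.

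HFD livers differed from control livers in 66 of 406 tested miRNAs (16.3%), of which 31 were higher (7.64%) and 35 lower (8.62%) by edgeR at an adjusted p under 0.05. One of the 35 was miR-122-5p, which the choice of libraries had used and which therefore counts for nothing here. The 31 higher ones were led by miR-34a-5p, miR-223-3p and both arms of miR-582, and the 34 lower ones by miR-455-5p, miR-1948-3p and abundant hepatocyte miRNAs. Of the 66, 31 differed at least 2-fold, and the smallest change called was 0.39 on the log2 scale. The HFD and control libraries did not overlap in 65 of the 66, and in 127 of all 406 tested miRNAs (31.3%). An unadjusted p under 0.05 was reached by 157.

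Which miRNAs were called lower depended on the scale. Levels below are CPM after TMM scaling, which sets each library by the bulk of its miRNAs. On that scale the median log2 fold change of all tested miRNAs was 0.13. On the scale of the plain library total, in which miR-122-5p alone takes a large share, the median was 0.74, and 133 miRNAs were higher and 8 lower. All 31 higher calls held on both scales, and 8 of the 35 lower ones.

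The calls also rested on few mice. The count fell to 31 without HFD 1, 27 without HFD 4, 14 without control 3 and 15 without control 4. It fell to 31, 25 and 28 without HFD_HQHF 1, 2 or 4. It was 75 without HFD 3, the library with the highest share of adipocyte genes among those fitted. A call is said below to hold only without certain libraries where it was past the threshold in the fits that left out one of those and missed it in the fits that left out any other. A fit to only the 7 HFD and control libraries called 11 of the higher and 8 of the lower miRNAs. Whichever of the 10 libraries was left out, 8 of the higher and 5 of the lower calls held, and these are described first. Of the 5 lower ones, miR-1843a-5p and miR-1843b-5p may hold the same reads. miR-1948-3p, also among them, had too few reads in HFD to pass the filter there alone. Of the 8 higher ones, miR-582-5p had under 10 reads in each control library. miR-582-3p had too few reads in control to pass the filter there alone. Among all tested miRNAs 26 had under 10 reads in each control library. The 9 of them called higher were tested only through their counts in other libraries.

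**Figure D1:**
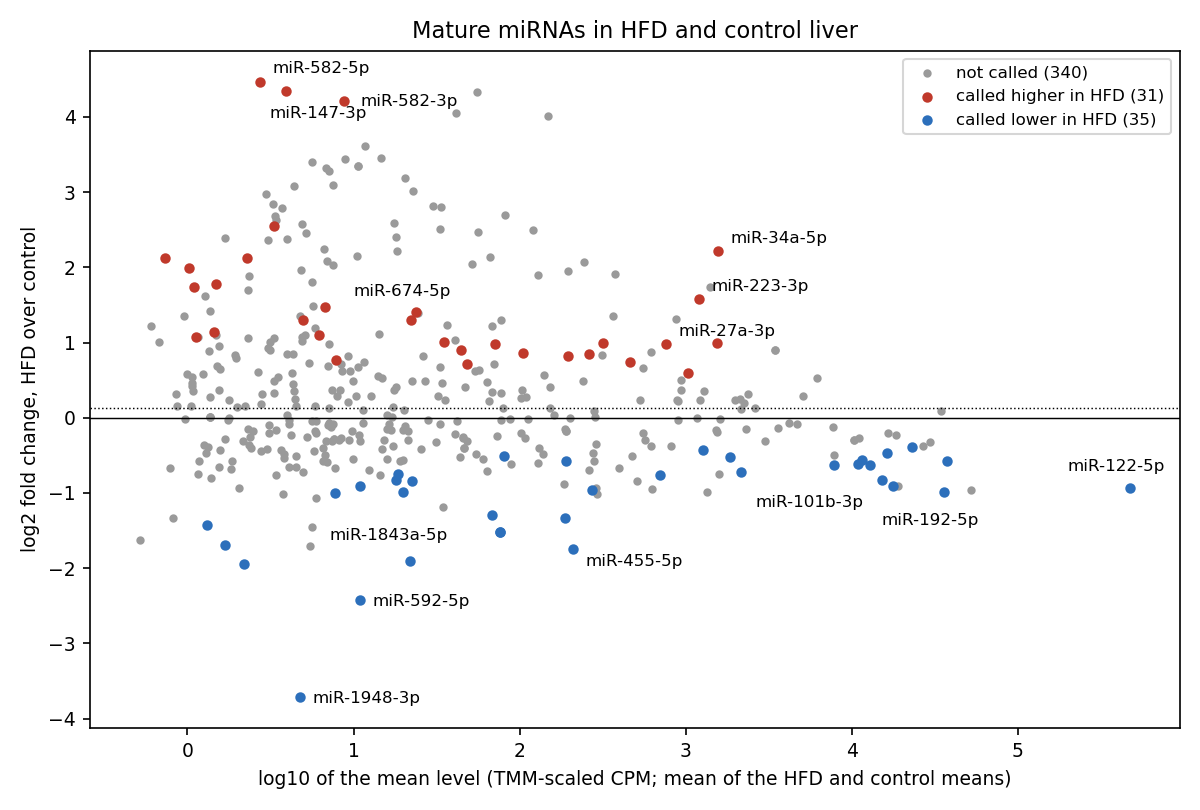
Log2 fold change of each of the 406 tested miRNAs (HFD over control) against the log10 of its mean level in TMM-scaled CPM. Red points are the 31 called higher, blue points the 35 called lower and grey points the 340 not called, and the dotted line is the median of 0.13. Blue points fill the right of the plot at small negative changes, and the red points at the top left have few reads.

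miR-34a-5p, a p53-induced miRNA long linked to fatty liver, was at 2279, 2653, 1847 and 3561 CPM in HFD 1 to 4, against 551, 511 and 612 CPM in control 1, 3 and 4. HFD 4 was the highest, and the lowest HFD library still lay far above the highest control library. The log2 fold change was 2.21 ± 0.28 (SE, adjusted p = 0.00534), and it ran from 2.04 to 2.90 over all alternative fits. Its other arm, miR-34a-3p, averaged 1.68 ± 0.354 CPM in HFD livers and 0.497 ± 0.211 CPM in control (SD, n = 4 and 3). That arm had 96 reads in HFD and 11 in control, under 10 in each control library. It was therefore tested only through its counts in other libraries. The log2 fold change was 1.74 ± 0.39 (adjusted p = 0.0232). The call was lost without HFD 4 (adjusted p = 0.051), control 3 (0.0823), control 4 (0.129) or HFD_HQHF 2 (0.0554).

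Both arms of miR-582, a miRNA from an intron of the phosphodiesterase gene Pde4d, had the highest fold changes among the calls that held without any 1 library. miR-582-3p was at 17.6, 21.1, 5.4 and 22.5 CPM in the HFD libraries, against 1.30, 0.728 and 0.641 CPM in the control libraries. HFD 3 was the lowest of the HFD libraries and still lay above each control library. The change was 4.20 ± 0.66 on the log2 scale (adjusted p = 0.00608), from 934 reads in HFD and 20 in control. Those 20 reads were too few to pass the filter on low counts through the 3 control libraries alone. miR-582-5p, at 4.64, 9.08, 1.49 and 5.77 CPM in HFD livers and 0.130, 0.291 and 0.256 CPM in control, changed by 4.47 ± 0.71 (adjusted p = 0.00608), but its 3 control libraries held 5 reads in all, so that it was tested only through its counts in other libraries.

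miR-223-3p, which neutrophils and macrophages express strongly, was at 2485, 1487, 1300 and 1890 CPM in HFD, against 679, 609 and 515 CPM in control. No HFD library came near the control range, and HFD 1 was the highest. The log2 fold change was 1.58 ± 0.22 (adjusted p = 0.00534). Its other arm, miR-223-5p, was higher too, by 1.47 ± 0.39 (adjusted p = 0.037), a call that held only without HFD 2, HFD 3 or control 1 (adjusted p = 0.0633 to 0.15 without any other library).

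miR-27a-3p, of the miR-23a, 27a and 24-2 cluster that is known to act on lipid metabolism, was at 998, 993, 876 and 1141 CPM in HFD livers and 606, 429 and 495 CPM in control. Its log2 fold change was 0.97 ± 0.16 (adjusted p = 0.00608), with no overlap. miR-15b-5p, of a family that restrains the cell cycle, was at 529, 619, 507 and 653 CPM in HFD livers and 355, 349 and 331 CPM in control. Its control libraries were nearly equal, and its log2 fold change was 0.74 ± 0.13 (adjusted p = 0.0081).

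miR-674-5p and miR-350-3p complete the higher set. miR-674-5p was at 33.3, 30.4, 42.3 and 32.3 CPM in HFD livers and 13.0, 15.4 and 10.8 CPM in control, a log2 fold change of 1.40 ± 0.20 (adjusted p = 0.00534). miR-350-3p was at 86.5, 100.4, 83.5 and 105.7 CPM in HFD livers and 48.5, 47.9 and 47.0 CPM in control, a change of 0.98 ± 0.15 (adjusted p = 0.00608). In both, each HFD library lay well above each control library. The 3p arm of miR-674 was called as well, at 1.30 ± 0.35 (adjusted p = 0.0374), and held only without HFD 2 or HFD 3 (adjusted p = 0.0539 to 0.139 without any other library).

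Among the lower miRNAs, miR-455-5p, from an intron of the collagen gene Col27a1 and known in mice for its part in brown fat, was at 121.6, 117, 65.3 and 77.9 CPM in HFD, against 263, 303 and 397 CPM in control. HFD 3 and HFD 4 were the lowest, and no HFD library came near the control range. On the log2 scale the change was -1.75 ± 0.25 (adjusted p = 0.00534), and -1.13 relative to library totals.

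miR-1948-3p was at 0.663, 1.22, 0.639 and 0.184 CPM in HFD livers and 5.08, 5.53 and 15.8 CPM in control, with control 4 far above the rest. Its log2 fold change was -3.71 ± 0.61 (adjusted p = 0.00665), from 35 reads in HFD and 200 in control. Those 35 reads of miR-1948-3p were too few to pass the filter on low counts through the HFD libraries alone. Its 5p arm, at 13.4, 14.0, 7.88 and 1.84 CPM in HFD livers and 29.6, 39.2 and 35.0 CPM in control, changed by -1.90 ± 0.54 (adjusted p = 0.0453), and was called only without HFD 2 or HFD 4 (adjusted p = 0.0522 to 0.143 without any other library).

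miR-1843a-5p was at 48.1, 43.4, 39.7 and 27.6 CPM in HFD livers and 84.4, 96.3 and 160 CPM in control (log2 fold change -1.52 ± 0.26, adjusted p = 0.0081). The values of miR-1843b-5p were nearly the same in each library, and its log2 fold change was -1.51. The sequences share a run of 20 bases and lie on chromosomes 12 and 1, so the counting could give the same reads to both, and they count as 1 result.

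miR-101b-3p, whose family is known for repressing the chromatin enzyme gene Ezh2, was at 12679, 14928, 11973 and 9476 CPM in HFD livers and 21712, 25123 and 21976 CPM in control. The groups stood well apart on this scale, with a log2 fold change of -0.90 ± 0.14 (adjusted p = 0.00608). With library totals it was -0.27 and not called (adjusted p = 0.0618).

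**Figure D2:**
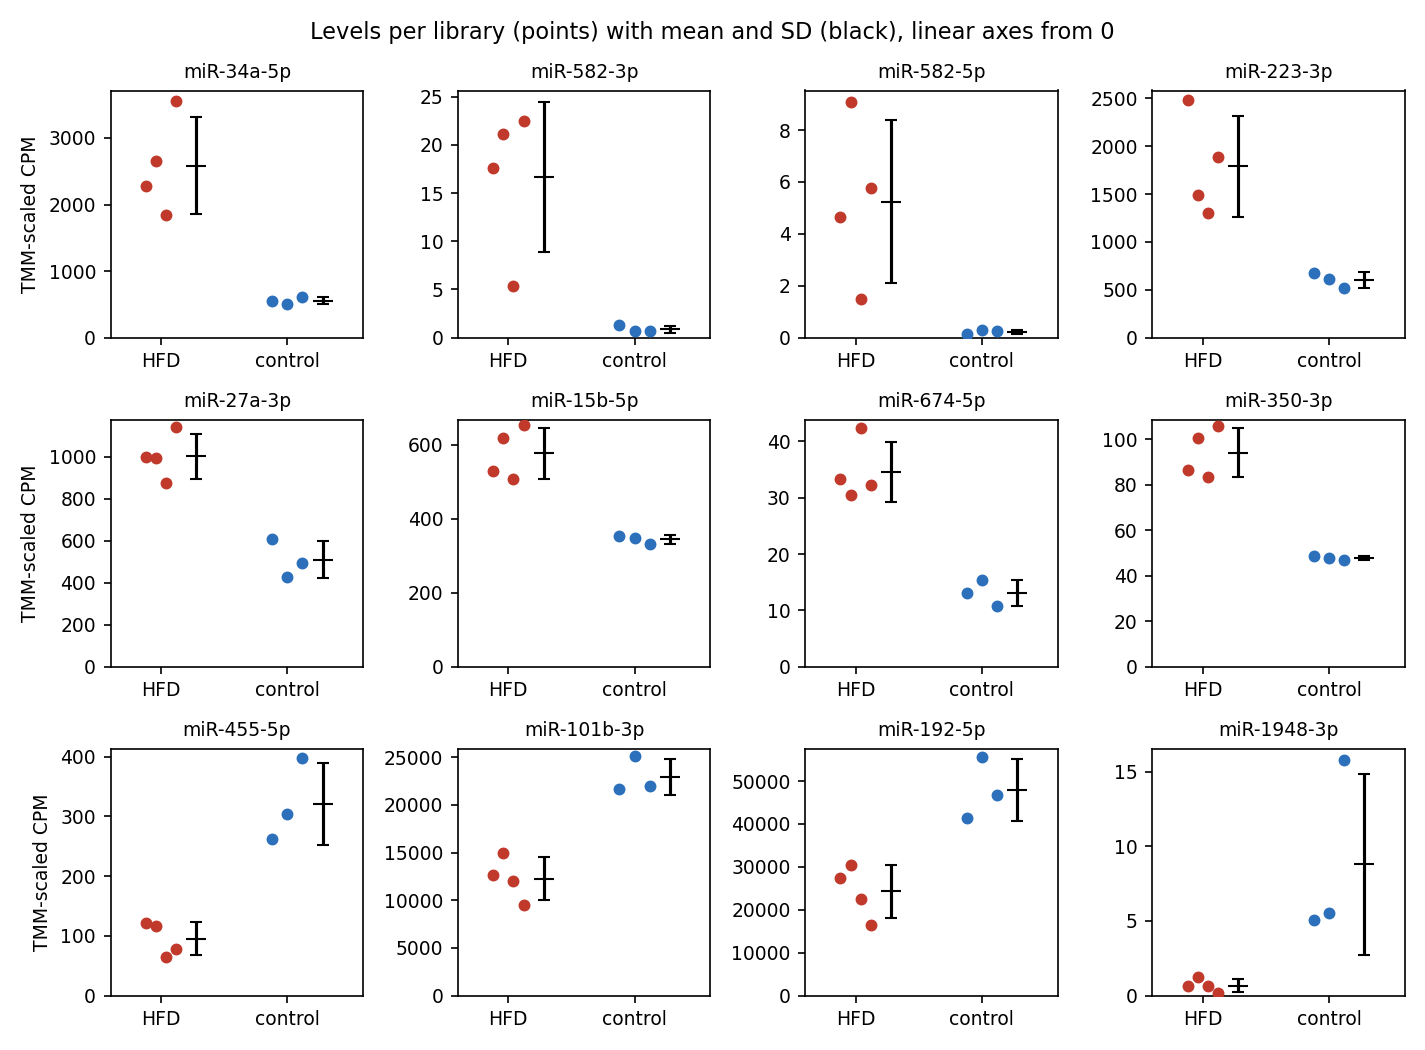
Level of 12 miRNAs in each library, in TMM-scaled CPM on linear axes from 0, with HFD (red, 4 libraries) left of control (blue, 3 libraries) and black bars for the mean ± SD. In each of these panels the red and blue points do not overlap, and miR-582-3p and miR-582-5p are lowest in HFD 3 among the HFD libraries.

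Several abundant hepatocyte miRNAs were lower in HFD livers on the TMM scale. Leaving out miR-122-5p, which the choice of libraries used, 5 of 12 listed and tested were lower and 0 higher, where 8.62% of all tested miRNAs were lower. Their median log2 fold change was -0.90, against 0.13 over all tested miRNAs. Relative to library totals the median was -0.28, beside 0.74 for all, and 1 of the 12 was lower and 2 were higher. miR-122-5p, described only, took 43.3%, 48.4%, 36.7% and 33.3% of the reads of HFD 1 to 4, and 46.6%, 54.8% and 49.5% of control 1, 3 and 4. HFD 2 lay above control 1 in that share.

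miR-192-5p, which hepatocyte transcription factors drive together with miR-194, was at 27432, 30448, 22632 and 16552 CPM in HFD livers and 41451, 55618 and 46692 CPM in control. The groups did not overlap, and the log2 fold change was -0.98 ± 0.20 (adjusted p = 0.0148), and -0.35 relative to library totals, where it was still called (adjusted p = 0.0218). The call was lost without control 3 (adjusted p = 0.0708) or control 4 (0.064). miR-192-3p changed by -0.96 ± 0.18 (adjusted p = 0.0125) and miR-194-5p by -0.83 ± 0.20 (adjusted p = 0.0305), neither called relative to library totals. The call of miR-192-3p was lost without control 3 (adjusted p = 0.0643), and that of miR-194-5p held only without HFD 2, HFD 3, HFD 4 or control 1. The cluster of miR-192 and miR-194 on chromosome 19 had 3 of 4 tested products called lower, where 8.62% of all tested miRNAs were lower. The fourth, miR-194-2-3p, changed by -0.09 and was not called. Relative to library totals 1 of the 4 was lower and 1 higher.

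Of the other hepatocyte miRNAs, miR-22-3p was lower by 0.72 on the log2 scale (adjusted p = 0.0305), with -0.06 relative to library totals, and held only without HFD 2, HFD 3 or control 1. miR-378a-3p, which lies within a gene of mitochondrial metabolism, averaged 427 ± 162 CPM in HFD livers and 822 ± 341 CPM in control and was not called (-0.94 ± 0.36, adjusted p = 0.0968). miR-802-5p, a regulator of glucose metabolism, averaged 1102 ± 303 CPM in HFD livers and 781 ± 387 CPM in control and overlapped between groups (0.50 ± 0.36, adjusted p = 0.312). In the long RNA of the same mice, hepatocyte genes took 6.95% to 11.3% of counts in HFD and 11.1% to 14.0% in control. On the TMM scale 5 of 10 were lower, where 9.89% of all 13832 tested genes were lower. Relative to library totals Serpina1a and Hpd were still called (adjusted p = 0.0369 and 0.00478). Apoa1, Cyp2e1 and Fabp1 were not (0.334, 0.0545 and 0.208). The part of these genes in the miRNA result was not tested, and in bulk liver fewer cells of a type and less RNA per cell cannot be told apart.

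Among 17 tested miRNAs that are linked to steatosis, 4 were higher and 2 lower, where 7.64% of all tested miRNAs were higher and 8.62% lower. The share of the list called lower was thus near that of all miRNAs, and its median log2 fold change was 0.46. The 4 were miR-34a-5p, miR-27a-3p and both arms of miR-582. The list was chosen with earlier results of these data known. miR-582-5p had under 10 reads in each control library, and miR-582-3p too few to pass the filter through control alone. Neither arm therefore adds to the count. The 2 lower ones were miR-103-3p and miR-107-3p, which share a seed and are known to dampen insulin sensitivity. Their sequences differ by 1 base and share a run of 21, so the counting could split reads between them. The 2 calls may therefore not be separate results. miR-103-3p was at 1463, 1451, 1838 and 1324 CPM in HFD livers and 1990, 2114 and 2423 CPM in control, a log2 fold change of -0.52 ± 0.13 (adjusted p = 0.0358). miR-107-3p was at 464, 552, 713 and 363 CPM in HFD livers and 745, 896 and 1019 CPM in control, a change of -0.76 ± 0.22 (adjusted p = 0.0453). Both groups of libraries were apart by a narrow gap, and each call held only without HFD 3 (adjusted p = 0.0558 to 0.155 and 0.0561 to 0.187 without any other library). With library totals miR-103-3p changed by 0.15 and miR-107-3p by -0.10.

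miR-33-5p, which lies within the cholesterol regulator gene Srebf2 and represses cholesterol export, was at 14.6, 20.6, 9.16 and 20.2 CPM in HFD livers and 15.4, 14.7 and 17 CPM in control. The groups overlapped fully, with a log2 fold change of 0.04 ± 0.27 (adjusted p = 0.923). Its other arm, miR-33-3p, was not called either (-0.26 ± 0.27, adjusted p = 0.474). miR-21a-5p, often raised in injured liver, was at 50904, 42052, 19203 and 29008 CPM in HFD livers and 63336, 61231 and 81893 CPM in control. Each HFD library lay below each control library, yet the change of -0.96 ± 0.31 missed the threshold (adjusted p = 0.0694), and it was -0.36 relative to library totals.

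Of 16 tested immune cell miRNAs, 6 were higher in HFD livers and 0 lower, where 7.64% of all tested miRNAs were higher and 8.62% lower. The median log2 fold change of the list was 0.99. Besides miR-223-3p these were miR-142a-5p, miR-150-5p, miR-342-3p, miR-342-5p and miR-147-3p. miR-342-5p and miR-147-3p had under 10 reads in each control library and were tested only through their counts in other libraries, which leaves 4 calls as a count of the list. On the scale of library totals 11 of the 16 were higher and 0 lower, where 133 of all 406 were higher (32.8%).

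miR-342-3p was at 487, 282, 420 and 509 CPM in HFD livers and 255, 183 and 204 CPM in control, a log2 fold change of 0.99 ± 0.23 (adjusted p = 0.0275). Its 5p arm changed by 2.13 ± 0.56 (adjusted p = 0.0366) at 3.73 ± 1.30 CPM in HFD livers and 0.844 ± 0.270 CPM in control. miR-150-5p, a miRNA of mature lymphocytes, was at 210, 201, 256 and 330 CPM in HFD livers and 181.9, 105 and 136 CPM in control (0.82 ± 0.24, adjusted p = 0.0462). Control 1 was the highest control library for both miR-342-3p and miR-150-5p. The call of miR-342-3p was lost without HFD 1 (adjusted p = 0.0549), HFD 4 (0.0514), control 3 (0.111), control 4 (0.129) or HFD_HQHF 2 (0.0517). That of miR-342-5p held only without HFD 2, HFD 3, HFD_HQHF 1 or HFD_HQHF 2, and that of miR-150-5p only without HFD 2 or control 1.

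miR-142a-5p, of a hairpin expressed throughout blood cells, was at 2455, 2013, 1108 and 2680 CPM in HFD livers and 1305, 873 and 933 CPM in control. It was the only one of the 66 calls whose groups overlapped, through HFD 3, with a log2 fold change of 0.99 ± 0.29 (adjusted p = 0.046). Its call held only when HFD 3 was left out (1.27, adjusted p = 0.00532), and without any other library the adjusted p ran from 0.0512 to 0.171. miR-142a-3p was not called, at 4068, 3315, 1019 and 2505 CPM in HFD livers and 2922, 2096 and 2455 CPM in control (0.13 ± 0.39, adjusted p = 0.821).

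miR-147-3p, which inflammatory signals induce in mouse macrophages, was at 23.3, 0.842, 2.27 and 3.44 CPM in HFD livers and 0.391, 0.291 and 0.384 CPM in control. HFD 1 alone set most of the HFD mean, and the log2 fold change was 4.34 ± 1.24 (adjusted p = 0.046). Without HFD 1, HFD 3 or HFD 4 the miRNA no longer passed the filter on low counts, and its call held only without HFD 2 (4.71, adjusted p = 0.0241). miR-155-5p, another miRNA of activated macrophages, was also highest in HFD 1, at 196 CPM, beside 58.9, 38.4 and 88.8 CPM in HFD 2 to 4 and 58.2, 27.2 and 37.7 CPM in control, and was not called (1.22 ± 0.55, adjusted p = 0.134).

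Marker genes of immune cells in the long RNA did not all change in 1 direction. Monocyte and recruited macrophage genes took 0.0368% to 0.106% of counts in HFD and 0.0072% to 0.0109% in control, with 11 of 12 tested members higher, where 16.3% of all tested genes were higher. Neutrophil genes were higher in 5 of 5 tested, and took 0.000812% to 0.00221% of counts in HFD and 0.000237% to 0.000293% in control. Genes of Kupffer cells, the resident macrophages of the liver, were lower in 4 of 10 tested and higher in 2, with a median log2 fold change of -0.35, where 9.89% of all tested genes were lower. The lower ones were Clec4f (-0.76 ± 0.24, adjusted p = 0.0408), Timd4 (-1.54 ± 0.44, adjusted p = 0.0282), Cd163 (-2.06 ± 0.61, adjusted p = 0.0361) and Folr2 (-0.71 ± 0.22, adjusted p = 0.0361), and none of them was called relative to library totals. The higher ones were the complement genes C1qb and C1qc, and the summed share of the list was 0.0393% to 0.0625% in HFD and 0.0296% to 0.0371% in control. Of 8 T and NK cell genes 3 were higher, yet their summed share overlapped between the groups, at 0.00753% to 0.00961% in HFD and 0.00375% to 0.0107% in control. Of 5 B and plasma cell genes 0 were called. The part of these cells in the miRNA levels was not tested.

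Among 20 stellate cell and fibrosis miRNAs, 1 was higher and 1 lower, no larger a share than the 7.64% and 8.62% of all tested miRNAs, with a median log2 fold change of 0.33. Both are described as single miRNAs. The higher one was miR-503-5p, at 40.2, 38.4, 58.9 and 49.4 CPM in HFD livers and 26.2, 22 and 21.4 CPM in control (1.01 ± 0.22, adjusted p = 0.0193), a call lost without control 3 (adjusted p = 0.0864) or control 4 (0.104). The lower one was miR-29c-3p, of a family known to repress collagen genes, at 9299 ± 1400 CPM in HFD livers and 13778 ± 1906 CPM in control (-0.57 ± 0.14, adjusted p = 0.0314). Its change was 0.10 relative to library totals, and its call held only without HFD 2 or HFD 3 (adjusted p = 0.0561 to 0.116 without any other library). miR-199a-3p, a miRNA of mesenchymal cells whose counts equal those of miR-199b-3p in each library, was at 4293, 3207, 3048 and 7343 CPM in HFD livers and 2798, 1834 and 2585 CPM in control. It missed the threshold (0.89 ± 0.31, adjusted p = 0.0739). Stellate cell genes took 0.0649% to 0.168% of long RNA counts in HFD and 0.0293% to 0.0387% in control, with 7 of 10 higher, where 16.3% of all tested genes were higher.

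No member was called among 6 endothelial, 6 red blood cell, 3 pancreas, 4 muscle and 5 neural miRNAs, nor in the miR-17 family of 6, the miR-181 family of 4 or the miR-183 cluster of 3. Their median log2 fold changes were -0.04, -0.40, -0.90, 0.15, 0.46, 0.44, -0.02 and 0.46. The endothelial miR-126a-3p averaged 35301 ± 5897 CPM in HFD livers and 33271 ± 669 CPM in control, a change of 0.09 ± 0.14 (adjusted p = 0.655).

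miRNAs with 1 seed did not all move together. In the miR-34 and miR-449 family, with seed GGCAGUG, 2 of 4 tested were called, both higher, where 7.64% of all tested miRNAs were higher. Beside miR-34a-5p this was miR-449a-5p, at 1.19, 1.40, 3.12 and 0.859 CPM in HFD livers and 0.521, 0.437 and 0.256 CPM in control (1.99 ± 0.59, adjusted p = 0.047). It had 91 reads in HFD and 9 in control, and its call was lost whichever library was left out (adjusted p = 0.0514 to 0.2). With under 10 reads in each control library, miR-449a-5p was tested only through its counts in other libraries. It therefore does not add to the count, which leaves miR-34a-5p alone. miR-34b-5p changed by 1.06 ± 0.70 and was not called (adjusted p = 0.268).

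In the let-7 family, with seed GAGGUAG, 1 of 9 was higher and 2 were lower, with a median of -0.23. Of all tested miRNAs 7.64% were higher and 8.62% lower, so the share of the family called higher was near that of all. let-7e-5p was at 1129, 1298, 1353 and 1187 CPM in HFD livers and 722, 905 and 840 CPM in control (0.59 ± 0.13, adjusted p = 0.0232). let-7f-5p was at 32169, 36623, 27473 and 24680 CPM in HFD livers and 39610, 50010 and 45288 CPM in control (-0.57 ± 0.14, adjusted p = 0.0336). let-7a-5p had a log2 fold change of -0.39 ± 0.11 (adjusted p = 0.0421). The call of let-7e-5p was lost without control 3 (adjusted p = 0.0501) or control 4 (0.0933), that of let-7f-5p held only without HFD 2, HFD 3 or control 1, and that of let-7a-5p only without HFD 2 or control 1. On the scale of library totals let-7f-5p and let-7a-5p changed by 0.07 and 0.28, and let-7e-5p by 1.27. let-7e-5p differs from let-7f-5p by 2 bases and from let-7a-5p by 1, so the authors' counting could split reads between them.

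In the miR-15 and miR-16 family, with seed AGCAGCA, miR-15b-5p was higher and miR-15a-5p lower. miR-15a-5p was at 1031, 1228, 1013 and 1062 CPM in HFD livers and 1327, 1649 and 1416 CPM in control (-0.43 ± 0.12, adjusted p = 0.0374). It changed by 0.23 relative to library totals, and its call held only without HFD 2 (adjusted p = 0.0599 to 0.129 without any other library). Both genes sit beside a copy of miR-16, on chromosomes 3 and 14. miR-15b-3p, the other arm of miR-15b, was higher with it (0.91 ± 0.19, adjusted p = 0.019), except without control 3 (adjusted p = 0.0501) or control 4 (0.0875).

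Ratios within a library do not depend on the scale. The ratio of miR-15b-5p to miR-15a-5p was 0.513, 0.504, 0.50 and 0.615 in HFD, and 0.267, 0.212 and 0.234 in control. The ratio of let-7e-5p to let-7f-5p was 0.042 ± 0.00775 in HFD and 0.0183 ± 0.000231 in control (SD, n = 4 and 3). The ratio of miR-27a-3p to miR-27b-3p, which differ by 1 base, was 0.22 ± 0.0209 in HFD and 0.105 ± 0.0176 in control. None of these 3 ratios overlapped between the groups, and they were not tested. Of 8 such ratios computed, chosen after the values were seen, 3 overlapped: miR-34a-5p to miR-34c-5p (235 ± 181.9 in HFD and 160.0 ± 199 in control), miR-582-5p to miR-582-3p (0.306 ± 0.0823 in HFD and 0.30 ± 0.173 in control) and miR-107-3p to miR-103-3p (0.34 ± 0.0542 in HFD and 0.406 ± 0.0277 in control). miR-27b-3p itself averaged 4548 ± 217 CPM in HFD livers and 4838 ± 146 CPM in control (-0.09 ± 0.09, adjusted p = 0.449).

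Other seed groups moved 1 way among their called members. miR-26a-5p and miR-26b-5p, with seed UCAAGUA, were lower by 0.61 and 0.46 on the log2 scale (adjusted p = 0.0125 and 0.0462). miR-30a-5p and miR-30e-5p, with seed GUAAACA, were both lower by 0.63 (adjusted p = 0.0148 and 0.00904), while miR-30c-5p was not called at -0.07. With library totals these 4 changed by 0.05, 0.20, 0.02 and 0.02 in that order, and none was called. miR-130b-3p and miR-301a-3p, with seed AGUGCAA, were higher by 1.10 ± 0.27 and 0.86 ± 0.18 (adjusted p = 0.0305 and 0.019), and miR-130a-3p averaged 1174 ± 284 CPM in HFD livers and 1174 ± 220 CPM in control. Without control 3 the calls of miR-30e-5p (adjusted p = 0.0501), miR-26a-5p (0.0544), miR-30a-5p (0.0652) and miR-301a-3p (0.0501) were lost, and without control 4 those of miR-26a-5p (0.0787), miR-30a-5p (0.064) and miR-301a-3p (0.0848). miR-26b-5p was called only without HFD 2 or control 1, and miR-130b-3p only without HFD 2, HFD 3 or control 1.

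**Figure D3:**
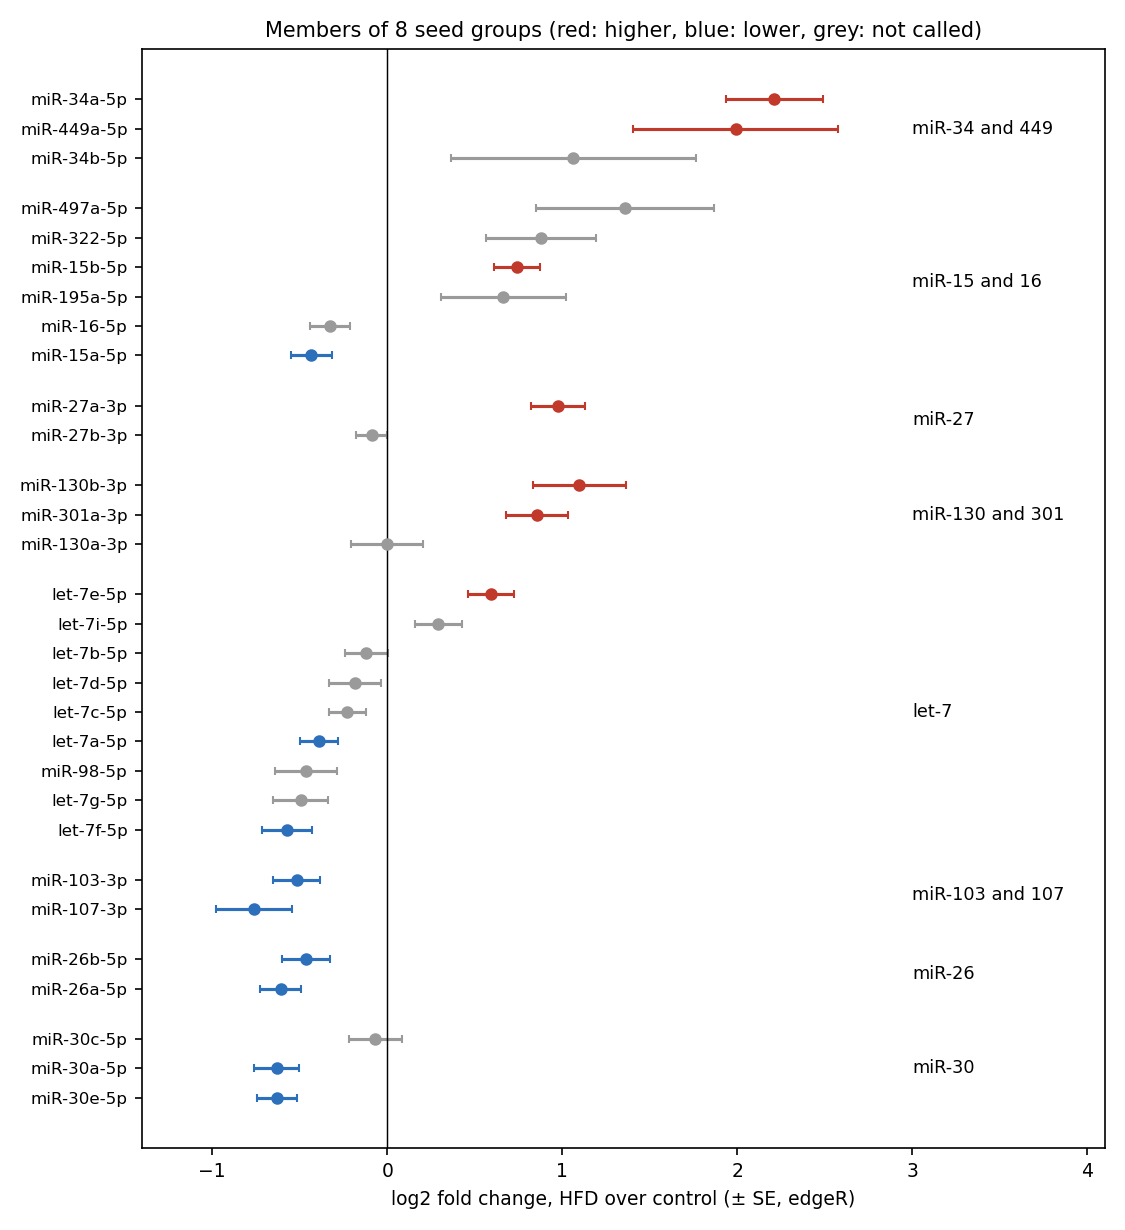
Log2 fold change (HFD over control, TMM scale) ± SE of members of 8 seed groups, 1 point per miRNA, red for higher, blue for lower and grey for not called. The miR-15 and 16, and let-7 groups hold points on both sides of 0. On the scale of library totals the changes of let-7f-5p, let-7a-5p, miR-15a-5p, miR-103-3p, both miR-26 and miR-30a-5p and miR-30e-5p lie at or above 0.

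The arms of a hairpin gave a second measure that needs no scaling, the log2 ratio of 5p to 3p reads. Of 118 hairpins with both arms counted, 13 changed (11%) by limma at an adjusted p under 0.05, 6 towards 5p and 7 towards 3p, and the groups did not overlap in 31 (26.3%). An unadjusted p under 0.05 was reached by 41. The count fell to 1 without control 4, to 4 without HFD 2, to 7 without HFD 4, to 6 without control 1 and to 3, 4 and 3 without HFD_HQHF 1, 2 or 4.

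The 5p to 3p ratio of miR-455 had the smallest p. Its log2 ratio was 1.18, 1.09, 2.33 and 2.69 in HFD, against 4.23, 3.77 and 4.28 in control, where 5p reads outnumbered 3p reads by far more. The change was -2.27 ± 0.33 (adjusted p = 0.000331), and it held in each of the 10 fits without 1 library. The 3p arm, in CPM, was at 53.6, 55.0, 12.9 and 12.0 in HFD and 13.9, 22.1 and 20.4 in control (log2 fold change 0.83 ± 0.57, adjusted p = 0.294). HFD 1 and HFD 2 were thus high for the 3p arm, and all 4 HFD libraries were low for the 5p arm.

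For miR-21a the log2 ratio was 9.36, 8.64, 9.60 and 8.33 in HFD, against 10.10, 10.22 and 10.63 in control. The change was -1.33 ± 0.27 (adjusted p = 0.00759), lost without control 4 (-1.18, adjusted p = 0.124). The 3p arm averaged 74.3 ± 35.0 CPM in HFD livers and 53.5 ± 3.64 CPM in control and was not called by itself (adjusted p = 0.416). The ratio of miR-142a moved the other way, to -0.73, -0.72, 0.12 and 0.10 in HFD, against -1.16, -1.26 and -1.4 in control (0.97 ± 0.21, adjusted p = 0.0107, or 0.139 without control 4). miR-98 and miR-872 changed by -1.10 ± 0.29 (adjusted p = 0.0382) and -1.06 ± 0.29 (adjusted p = 0.0441), and without control 4 were at -0.81 and -0.67 and not called. The call of miR-98 was also lost without HFD 2, HFD 4, HFD_HQHF 1 or 4, and that of miR-872 without HFD 2, HFD 3 or any of the HFD_HQHF libraries (adjusted p = 0.0512 to 0.068).

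**Figure D4:**
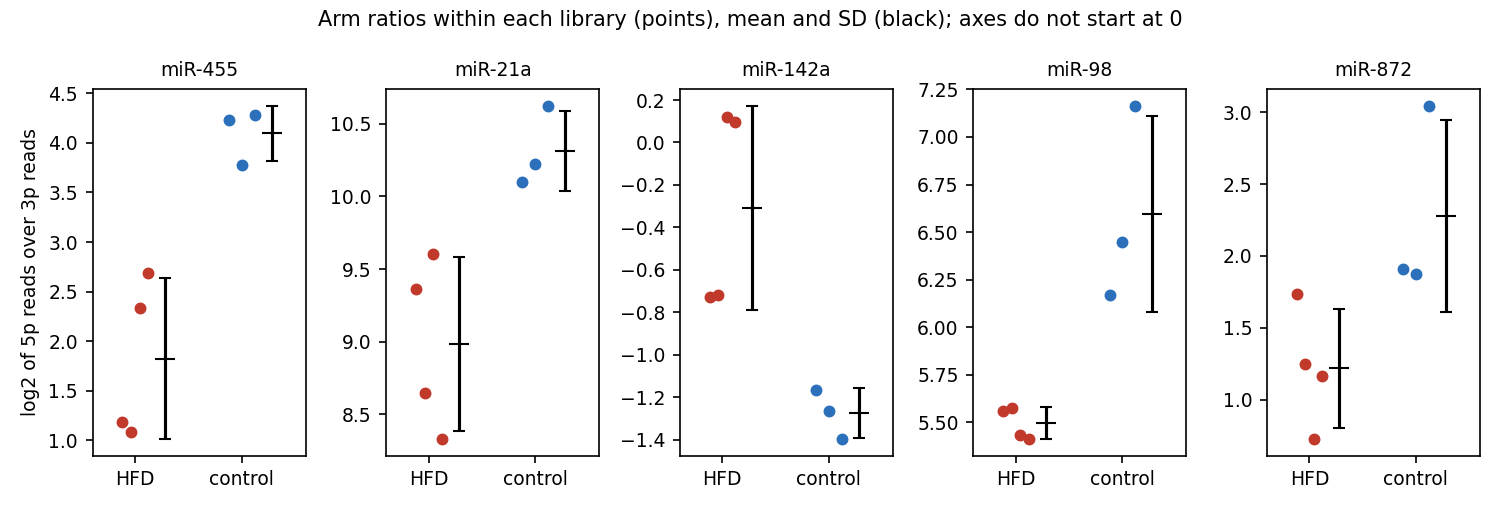
Log2 ratio of 5p to 3p reads for the 5 hairpins with the smallest p, 1 point per library, HFD (red) left of control (blue), with black bars for the mean ± SD. The 4 HFD libraries lie below the 3 control libraries for miR-455, miR-21a, miR-98 and miR-872, and above them for miR-142a.

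In a pair of clustered groups the fold changes were large, yet edgeR called 0 members, and 1 or 2 HFD libraries held most of the reads. The 29 tested miRNAs of the imprinted Dlk1-Dio3 region on chromosome 12 had a median log2 fold change of 2.81. Their summed level was 306, 144, 3620 and 166 CPM in HFD livers and 181, 69.7 and 133 CPM in control. HFD 3 was the highest library for each of the 29. HFD 2 and HFD 4 lay within the control range in their sum and HFD 1 somewhat above it. Among the mice kept, the long RNA list of adipocyte genes was also highest in HFD 3, at 0.0401% of counts. It was at 0.00126% to 0.0104% in the other HFD mice and 0.001% to 0.00474% in the control mice kept. Adipoq, which encodes the fat cell hormone adiponectin, had 1492 reads in HFD 3 and at most 38 in any control mouse kept. The part of adipocyte RNA in this level was not tested.

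The 8 tested miRNAs of the miR-200 clusters, which mark epithelial cells such as those of bile ducts, had a median log2 fold change of 2.0. Their summed level was 7359, 1074, 281 and 5543 CPM in HFD livers and 1222, 802 and 988 CPM in control. HFD 1 and HFD 4 were high, HFD 3 was the lowest of all, and HFD 2 lay within the control range. Cholangiocyte genes took 0.0115%, 0.00528%, 0.00275% and 0.0465% of long RNA counts in HFD, and 0.0024%, 0.00221% and 0.00174% in control, with 1 of 6 called higher, the keratin gene Krt19, about the share of all tested genes (16.3%). Their part in the miRNA level was not tested.

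**Figure D5:**
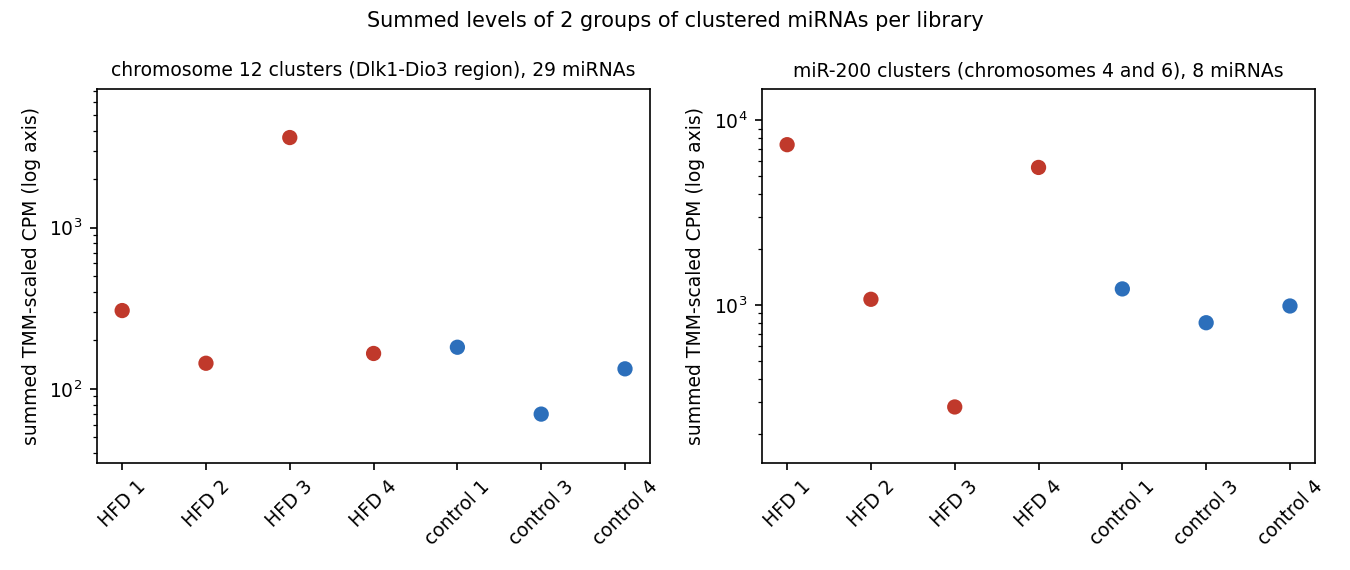
Summed level of the 29 Dlk1-Dio3 miRNAs (left) and the 8 miR-200 cluster miRNAs (right) in each library, in TMM-scaled CPM on log axes, HFD libraries in red and control libraries in blue. HFD 3 stands alone on the left at 3620 CPM, and HFD 1 and HFD 4 stand above the rest on the right.

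Among other clusters, the let-7e and miR-99b cluster on chromosome 17 had 2 of 6 tested products higher and 0 lower, beside 7.64% of all miRNAs higher. Beside let-7e-5p this was miR-99b-5p, at 249, 255, 411 and 428 CPM in HFD livers and 184, 192.2 and 185 CPM in control (0.84 ± 0.22, adjusted p = 0.0362), called only without HFD 1, HFD 2 or HFD 3 (adjusted p = 0.0629 to 0.139 without any other library). The cluster of miR-322 and miR-503 on chromosome X had 2 of 11 higher and 0 lower, miR-503-5p and miR-450a-1-3p. miR-450a-1-3p had under 10 reads in each control library and was tested only through its counts in other libraries. Its call held in 0 of the 10 fits that left out 1 library. It therefore adds nothing to the count, which leaves miR-503-5p alone.

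Host genes were read from the long RNA of the same mice, where 3625 of 13832 tested genes (26.2%) were called and 36.7% did not overlap between the groups. The count was 1568 without control 1, 1757 without control 3 and 2078 without control 4. Of the called miRNAs, 23 lay within a tested gene on its strand, in 25 pairs of miRNA and host. The host was called the same way in 8 pairs, the opposite way in 1 and not called in 16. Pank1, a pantothenate kinase that starts coenzyme A synthesis and hosts miR-107, was at 85.9, 72.4, 136 and 83.9 CPM in HFD livers and 305, 254 and 275 CPM in control. No library overlapped, and the log2 fold change was -1.56 ± 0.21 (adjusted p = 0.0022), or -0.93 relative to library totals. Pank3, which hosts a copy of miR-103, changed by -0.48 ± 0.14 (adjusted p = 0.0282), and by 0.12 relative to library totals. Its call was lost without HFD 1 (adjusted p = 0.0633), HFD 4 (0.0686), control 1 (0.0949) or control 3 (0.0692).

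Evl, an actin regulator that hosts miR-342, was at 12.2, 7.17, 8.96 and 11.4 CPM in HFD livers and 4.07, 2.67 and 2.92 CPM in control. The groups did not overlap, and Evl was higher by 1.63 ± 0.24 (adjusted p = 0.00323), the same direction as both arms of miR-342. Rcl1, the host of miR-101b, was lower by 0.56 on the log2 scale (adjusted p = 0.0254), with 0.04 relative to library totals. Grm8, the host of miR-592, averaged 0.478 ± 0.310 CPM in HFD livers and 2.26 ± 1.12 CPM in control (-2.23 ± 0.55, adjusted p = 0.0164). miR-592-5p was at 5.96, 5.99, 0.710 and 1.10 CPM in HFD livers and 18.1, 15.7 and 21.3 CPM in control (-2.42 ± 0.69, adjusted p = 0.046). Ska2, which hosts miR-301a, and Fam114a1, which hosts miR-574, were higher with their miRNAs, by 1.57 ± 0.52 and 0.67 ± 0.16 (adjusted p = 0.0466 and 0.016). The calls of Pank1 and Evl held without any 1 library. Rcl1 was not called without HFD 4, control 1 or control 3 (adjusted p = 0.0526, 0.081 and 0.0704), Grm8 without control 1 or control 4 (0.0606 and 0.0612), Fam114a1 without control 3 or control 4 (0.0853 and 0.0533) and Ska2 without any library but HFD 2 (0.0548 to 0.112). miR-592-5p itself was called only without HFD 2 or HFD 3.

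Pde4d and Col27a1, the hosts of miR-582 and miR-455, were not called. Pde4d averaged 17.8 ± 6.80 CPM in HFD livers and 16.3 ± 0.834 CPM in control (log2 fold change 0.13 ± 0.25, adjusted p = 0.73), beside 4.20 for miR-582-3p. Col27a1 averaged 4.61 ± 1.34 CPM in HFD livers and 3.88 ± 1.43 CPM in control (0.25 ± 0.44, adjusted p = 0.706), beside -1.75 for miR-455-5p. Ctdsp2, which hosts a copy of miR-26a, was higher by 0.65 ± 0.21 (adjusted p = 0.0414) while miR-26a-5p was lower on the TMM scale. The call of Ctdsp2 held only without HFD 2, HFD 3 or HFD_HQHF 4. miR-26a-5p has a second copy in Ctdspl, which was not called.

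Messengers known as targets were listed by miRNA. Of all tested genes 16.3% were higher and 9.89% lower. For miR-34a-5p, which was higher, 1 of 7 tested targets was lower and 2 were higher, counts near those shares. Met, the receptor of hepatocyte growth factor, was at 76.8, 77.5, 74.1 and 65.8 CPM in HFD livers and 125, 117 and 113 CPM in control (-0.69 ± 0.13, adjusted p = 0.00583), but at -0.09 relative to library totals. Ccnd1, the cell cycle gene cyclin D1, was at 51.5, 37.7, 33 and 108 CPM in HFD livers and 10.2, 17.3 and 14.2 CPM in control (2.05 ± 0.41, adjusted p = 0.00875). Axl, a receptor kinase of macrophages and stellate cells, was higher by 1.11 ± 0.24 (adjusted p = 0.01). Sirt1, the deacetylase best known as a miR-34a target, averaged 7.54 ± 0.866 CPM in HFD livers and 9.03 ± 2.07 CPM in control and was not called (-0.26 ± 0.19, adjusted p = 0.332).

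For miR-223-3p 0 of 4 tested targets were lower and 2 were higher. Mef2c, a transcription factor of myeloid and other cells, changed by 0.94 ± 0.28 (adjusted p = 0.0326), and Cxcl2, which draws neutrophils, by 2.93 ± 0.82 (adjusted p = 0.0263). Both calls were lost without control 1 (adjusted p = 0.0991 and 0.0895), control 3 (0.101 for both) or control 4 (0.0819 and 0.0521), that of Mef2c also without HFD 4 (0.0654) and that of Cxcl2 without HFD 1 (2.01, adjusted p = 0.0535).

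For miR-122-5p 3 of 6 tested targets were higher and 0 lower. Slc7a1, the arginine transporter that is a classic miR-122 target, was at 6.34, 6.86, 17.7 and 8.96 CPM in HFD livers and 1.26, 0.974 and 0.952 CPM in control. Each HFD mouse lay far above each control mouse (3.22 ± 0.38, adjusted p = 0.0012). Ccng1, cyclin G1, was higher by 0.59 ± 0.13 (adjusted p = 0.0106, or 0.074 without control 3), and Gys1, a glycogen synthase, by 1.03 ± 0.33 (adjusted p = 0.0426). The call of Gys1 was lost without HFD 3 or HFD 4, each control library or HFD_HQHF 1. The miR-29a-3p list, mostly collagen genes, had 7 of 7 members higher, with miR-29a-3p itself not called (-0.37 ± 0.13, adjusted p = 0.0734). No link between a miRNA and a messenger was tested.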

How the data were processed

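Small RNA and long RNA libraries were made by the authors from TRIzol-extracted liver RNA, per the labels' protocols. The deposited tables hold raw counts per mature miRNA and per gene, made by the authors. The submitters' processing notes name HISAT2, RSEM and GRCm39, and the miRNA reference and counting step are not given in the notes. Of 1291 miRNA entries 107 lack the mouse prefix, of which 3 were tested.

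Counts of 10 libraries (4 HFD, 3 control, 3 HFD_HQHF) were filtered with filterByExpr (at least 10 reads in a library of median size) and scaled by TMM. The TMM factors were 1.03 to 1.61 in HFD, 0.707 to 0.943 in control and 0.832 to 0.911 in HFD_HQHF, so they differed between the groups compared. The counts were fitted with edgeR 4.0.16 (group means, robust quasi-likelihood) in R 4.3.3. P-values were adjusted by Benjamini-Hochberg over all features, and calls made under 0.05. The SE is the size of the log2 fold change divided by the root of F. Arm ratios, log2 of 5p + 0.5 over 3p + 0.5 reads, were tested with limma 3.58.1 for hairpins with at least 10 reads of each arm in 3 libraries. The long RNA fit used the same mice. Hosts are RefSeq genes around a hairpin on its strand. Figures were drawn with matplotlib 3.10.9. All 3 fits were tested on simulated data. The alternatives were DESeq2 1.42.0, other scalings, filters and sets of libraries, and each library left out.

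Named miRNAs were, among calls with at least 10 CPM in the higher group, the 10 highest and 10 lowest fold changes and the 5 most abundant each way, a set of much-studied miRNAs, and up to 4 members of each list, seed group or cluster by p. Others named, such as miR-449a-5p, were chosen after their values were seen. The members and the lists were chosen with earlier results of these data known. Each mouse gave 1 small RNA and 1 long RNA library, which share its number and batch code in the labels. The labels do not say that replicate numbers pair mice across groups, nor more on how the mice were kept apart, so p-values measure the spread between these libraries.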

Additional observations from a re-analysis of the deposited data

Results flagged for a closer look

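Of 57 named miRNAs, 3 had 1 HFD library far from the other 3. About 1 in 20 groups would be picked out in this way by chance. miR-147-3p, a miRNA of inflamed macrophages, was at 23.3 CPM in HFD 1, beside 0.842 to 3.44 CPM in the other HFD libraries and at most 0.391 CPM in control. miR-137-3p was at 185 CPM in HFD 3, beside 75.3 to 90.5 CPM in the other HFD libraries and 217 to 297 CPM in control. Its log2 fold change was -1.34 with HFD 3 and -1.67 without it (adjusted p = 0.000667). The call of miR-137-3p held in only 3 of the 10 fits that left out 1 library, and in 5 of 9 other alternatives. It was lost relative to library totals, and the largest adjusted p over all alternatives was 0.744. miR-34a-3p was at 2.21 CPM in HFD 4, beside 1.46 to 1.56 CPM in the other HFD libraries and 0.256 to 0.651 CPM in control.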

How the results depend on the processing

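The count of 66 miRNAs called became 117 with DESeq2, 141 with library totals, 26 with no filter, 19 with only the 7 HFD and control libraries, 3 with all 12 libraries, 123 at an adjusted p under 0.1 and 31 with a 2-fold minimum. Without 1 library it ran from 14 (without control 3) to 75 (without HFD 3). The count of 13 arm ratios became 8 with a pseudocount of 2, 1 with 1 read per arm in 1 library, 3 with the 7 libraries and 0 with all 12 (by limma), and ran from 1 to 13 without 1 library. The 3625 genes became 7219 with library totals and 7 with all 12 libraries, and ran from 1568 (without control 1) to 3882 (without HFD 3), with 1757 without control 3. After group means were removed, same-numbered HFD and control mice had correlations of 0.04, -0.38 and -0.15 in small RNA. So few values cannot decide whether the numbers pair mice. With the replicate number as a block 37 miRNAs and 1 arm ratio were called.

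With library totals the direction turned for let-7f-5p (0.072), let-7a-5p (0.28), miR-33-3p (0.38), miR-15a-5p (0.23), miR-103-3p (0.15), miR-26a-5p (0.055), miR-26b-5p (0.20), miR-30a-5p (0.020), miR-30e-5p (0.020), miR-29c-3p (0.10), Pank3 (0.12), Rcl1 (0.040) and Sirt1 (0.32). With totals that leave out miR-122-5p it turned for let-7a-5p (0.011) and miR-33-3p (0.13). With all 12 libraries it turned for let-7e-5p (-0.086), miR-33-3p (0.044), miR-150-5p (-0.89), miR-99b-5p (-0.19), Ska2 (-0.37), Gys1 (-1.21), Ccng1 (-0.47) and Mef2c (-0.23). With the block it turned for miR-33-5p (-0.12) and miR-142a-3p (-0.13). Without 1 library it turned for miR-142a-3p (-0.12 without HFD 1, range to 0.46), miR-33-5p (-0.10 without HFD 2, -0.06 without HFD 4, -0.02 without control 3, range to 0.30), Pde4d (-0.16 without HFD 4, range to 0.26) and Col27a1 (-0.0058 without control 1, range to 0.53). The cause was not tested. Over 57 miRNAs and 1072 alternatives, 674 kept direction and side of the threshold, 365 lost the call, 11 gained one and 22 turned. Of the 66 calls, 10 held in each alternative other than that with all 12 libraries. Among the tested miRNAs 26 had under 10 reads in each control library, and 9 of these were called higher.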

Other observations

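Some miRNAs were outside the tests. Of the 1291 listed, 274 had reads in HFD libraries only, with at most 219 reads, 52 had reads in control libraries only, with at most 14, and 148 had none in the 7 libraries. The pancreatic miR-216a-5p had 29, 7, 8 and 4 reads in HFD 1 to 4 and 1075, 8 and 3 reads in control 1, 3 and 4, the highest count of any untested miRNA. In control 1 the long RNA list of pancreatic acinar genes also stood at 0.199% of counts, beside at most 0.00241% in the other 6 mice.

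Further called miRNAs, chosen after their values were seen, were miR-484, at 5.15 ± 0.607 CPM in HFD livers and 10.3 ± 3.10 CPM in control (log2 fold change -1.0, adjusted p = 0.0305), and miR-22-5p, at 39.7 ± 12.4 CPM in HFD livers and 97.6 ± 31.1 CPM in control (-1.30, adjusted p = 0.0286). Neither was called relative to library totals. Ratios of abundant miRNAs within a library, which need no scaling, were computed too. The ratio of miR-192-5p to miR-16-5p was 1.00, 1.08, 0.889 and 0.699 in HFD and 1.38, 1.47 and 1.51 in control. The ratio of miR-122-5p, which the choice of libraries used, to miR-126a-3p was 9.27 ± 3.05 in HFD and 18.7 ± 3.89 in control (SD, n = 4 and 3). The ratio of miR-192-5p to miR-16-5p did not overlap between the groups. That of miR-122-5p counts for nothing here, since the choice of libraries used that miRNA. Neither ratio was tested, and they are 2 of the 8 ratios computed, of which 3 overlapped.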
